A study of Mus musculus with 30 samples.

Results

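The sites described here are the chromatin regions that differed between fibroblasts given doxycycline and fibroblasts given neither doxycycline nor blebbistatin. All 7613 regions with a position in the list that the authors deposited for this comparison were taken, of 16367 regions in the 5 site lists of the study. The cells were primary mouse fibroblasts from tail tendon, with the genotype given as wildtype in every library. The doxycycline group (dox_noblebb, 3 libraries) received 10 ng/mL in DMEM with 0.1% FBS. The reference group (nodox_noblebb, 3 libraries, treatment given as DMSO) was kept in the same medium. All other groups used below also had 3 libraries and 0.1% serum. In them blebbistatin was given at 10 µM, alone or with 10 ng/mL doxycycline, and Y27632 at 30 µM. The labels do not state what doxycycline switched on, name no transgene and give no duration, so the doxycycline group is described here by its drug alone. ATAC, which marks accessible chromatin by a transposase that cuts open DNA, is the only genomic DNA protocol named, and it is not tied to these libraries in particular. The list holds 1 mean level per group on a log2 scale, so the spread between the 3 libraries of a group could not be given and no new test of a site was possible. The reference column of the list carries the header of a group given blebbistatin, but its values fit those of the group with neither drug and it was read so. Every site level, fold and FDR below is the authors' deposited value, and p-values behind them measure the spread between libraries that are not stated to be separate cultures or animals.

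The aim stated for the study concerns mechanical cues and the co-activators Yap and Taz in chromatin and matrix upkeep. YAP and TAZ (the products of Yap1 and Wwtr1) carry no DNA-binding domain and reach DNA through TEAD factors, often at enhancers far from gene starts where AP-1 factors also bind. They enter the nucleus when cells spread, pull on a stiff substrate and build actomyosin tension, and the Hippo kinases hold them in the cytoplasm. Blebbistatin, an inhibitor of non-muscle myosin II, removes that tension. In tendon, fibroblasts lay down and renew a matrix rich in fibrillar collagen. Doxycycline is an antibiotic that is also used to turn on genes placed under a tetracycline-controlled promoter.

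The promoters of 4 YAP/TAZ pathway genes overlapped by higher sites are shown first, and were picked because they hold letters recognised by TEAD. These letters are not commoner under higher sites: the core stood in 11.7% of promoter windows there, beside 14.7% of all windows and 12.5% of those of genes with RNA in these cells. Each is the 250 bases before the gene's start, 5' to 3' on the gene's strand, from RefSeq (GRCm38.p6). Capitals mark the TEAD core GGAATG on either strand.
Ccn1: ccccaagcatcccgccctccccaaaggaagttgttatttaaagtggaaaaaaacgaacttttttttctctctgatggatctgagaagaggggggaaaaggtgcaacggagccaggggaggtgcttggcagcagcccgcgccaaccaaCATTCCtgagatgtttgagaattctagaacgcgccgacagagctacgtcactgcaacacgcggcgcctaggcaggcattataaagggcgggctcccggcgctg
Ankrd1: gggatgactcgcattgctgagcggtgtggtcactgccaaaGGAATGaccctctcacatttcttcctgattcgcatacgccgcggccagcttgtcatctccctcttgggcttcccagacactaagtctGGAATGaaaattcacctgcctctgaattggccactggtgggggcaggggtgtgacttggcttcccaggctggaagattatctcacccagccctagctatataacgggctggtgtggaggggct
Ptpn14: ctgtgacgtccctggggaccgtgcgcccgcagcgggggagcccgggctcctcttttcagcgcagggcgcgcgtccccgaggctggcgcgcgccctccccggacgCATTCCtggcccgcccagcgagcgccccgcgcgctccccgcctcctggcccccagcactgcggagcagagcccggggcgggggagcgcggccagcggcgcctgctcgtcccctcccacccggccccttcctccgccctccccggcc
Wwtr1: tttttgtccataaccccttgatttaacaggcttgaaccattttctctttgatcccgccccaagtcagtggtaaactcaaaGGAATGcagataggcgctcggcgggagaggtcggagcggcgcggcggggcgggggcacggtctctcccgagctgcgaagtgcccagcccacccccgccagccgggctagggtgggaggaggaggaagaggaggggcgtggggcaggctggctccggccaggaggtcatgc
The Ccn1 sequence lies at chr3:145649986-145650235 on the minus strand and holds 1 match, starting 103 bases before the start. Ankrd1 (chr19:36119845-36120094, minus strand) holds 2 matches, 210 and 123 bases before the start. Ptpn14 (chr1:189728018-189728267, plus strand) and Wwtr1 (chr3:57575877-57576126, minus strand) hold 1 each, 146 and 170 bases before. All 5 matches lie inside the listed site of their gene. The promoters of Ajuba and Axl, other YAP/TAZ targets with a promoter site, also hold the core (2 and 1 matches), but these matches lie outside the listed site.

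Nearly all listed sites were higher with doxycycline. About 81359 regions had been tested, a number worked out from the deposited p-values, ranks and FDR. Of these, 7297 (8.97%) were higher with doxycycline and 316 (0.388%) were lower at the authors' thresholds of an FDR of at most 0.05 and a log2 fold of at least 1 in either direction, 9.36% together. At least 32282 regions (39.7%) met the FDR threshold alone, so the fold threshold removed most of them from the list. Higher sites had a median level of 5.31 with neither drug and 6.55 with doxycycline, and a median log2 fold of 1.16. The largest fold was 3.91. Lower sites had median levels of 5.54 and 4.36 and a median log2 fold of -1.17, and the lowest was -2.38. Many sites lie close to the fold threshold: 34.0% of the higher and 28.8% of the lower sites had a log2 fold under 1.1 in size, 325 sites stood at exactly 1 in size, and 135 higher and 5 lower sites reached 2. Regions just outside the threshold are not in the list and were not analysed here. How libraries were scaled is not given, and whether scaling moved the levels of a whole group was not tested.

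**Figure D1:**
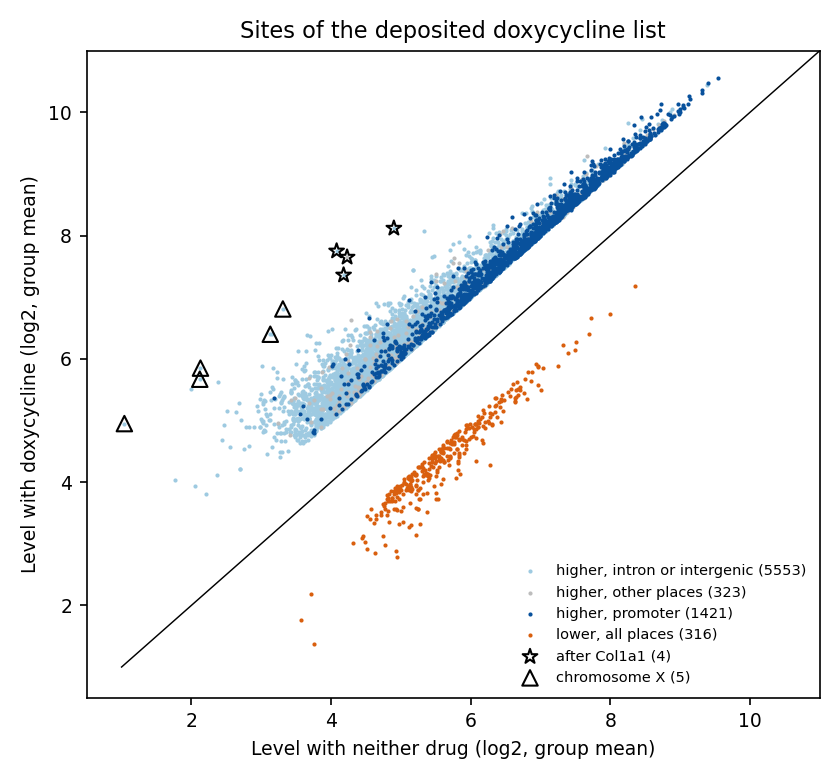
Each point is 1 of 7613 sites, with its deposited log2 mean level with neither drug on the x axis and with doxycycline on the y axis, and the line marks equal levels. The 1421 promoter sites form a band at high levels just above the fold threshold, the 4 sites after Col1a1 (stars) and 5 sites on chromosome X (triangles) stand far above the line, and the 316 lower sites lie below it.

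Higher sites that started low had larger folds. With the list cut into 3 equal parts by level with neither drug, the 2507 higher sites of the lowest part had a median log2 fold of 1.28, and 123 of them reached 2. The 2443 higher sites of the highest part had a median of 1.1, and 1 reached 2. Median widths were 174 bp in the lowest part and 415 bp in the highest. The level enters the fold, so this relation is a description and not a test.

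Higher sites were found in promoters, introns and between genes, and lower sites almost only in introns and between genes. Promoters held 1421 of the higher sites (19.5%), introns 2660 (36.5%) and regions between genes 2893 (39.6%). Among the lower sites, 136 (43.0%) were intronic, 171 (54.1%) lay between genes, and 1 was a promoter. That promoter belongs to Phyhd1, at chr2:30265749-30265949, 354 bp before the start, where the level was 6.35 with neither drug and 5.23 with doxycycline. Within 100 bp of a gene start there were 921 higher sites (12.6%) and 0 lower ones. The median distance to the nearest start was 21522 bp for higher and 41359 bp for lower sites. Beyond 10000 bp, the nearer of the 2 classes plotted held 43.6% of the higher and 61.7% of the lower sites.

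**Figure D2:**
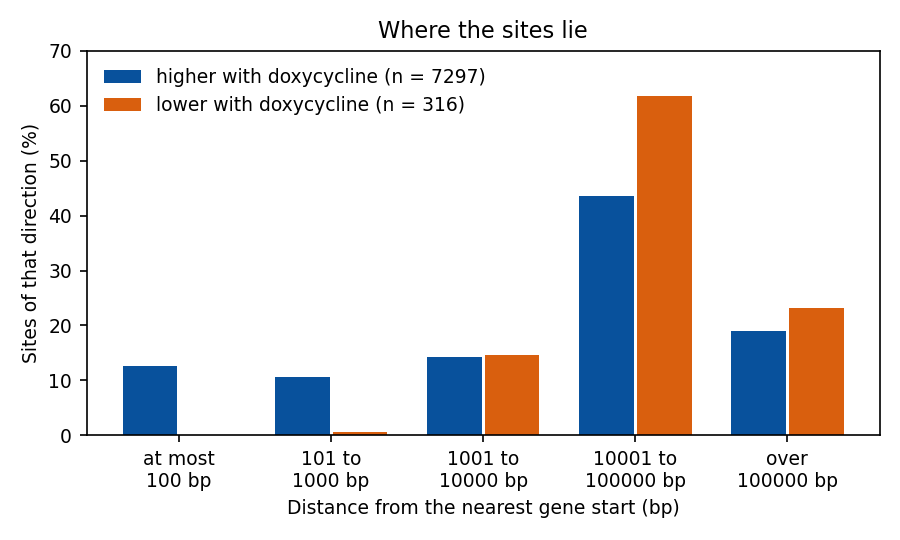
Bars give the percentage of the 7297 higher sites (blue) and the 316 lower sites (orange) in each class of distance from the nearest gene start in bp, as the authors annotated it. Classes up to 1000 bp hold 12.6% and 10.6% of the higher sites and 0% and 0.633% of the lower ones.

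Promoter sites were broad regions of high level with folds near the threshold. Of the higher ones, 714 (50.2%) had a log2 fold under 1.1, and the part of library scaling in this was not tested. The 1421 higher promoter sites had median levels of 6.83 with neither drug and 7.95 with doxycycline, a median log2 fold of 1.09 and a median width of 367 bp, and 2 of them reached a fold of 2. The 5553 higher sites in introns or between genes had median levels of 5.02 and 6.30, a median log2 fold of 1.19 and a median width of 234 bp, and 130 reached 2, of 135 higher sites that did so. In the 2 other lists of the doxycycline experiment, which share libraries with this one, promoters held 113 of 6332 sites lower with blebbistatin given with doxycycline (1.78%) and 13 of 1219 lower with blebbistatin alone (1.07%).

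Repeats made up a minority of either direction. The authors' annotation placed 17.3% of the higher and 15.5% of the lower sites in a repeat. Long terminal repeats, the ends of retrovirus-like elements, held 535 higher sites (7.33%) and 15 lower ones (4.75%), and the family with most sites was RMER15 (28 sites, 27 higher). All 23 sites in tRNA genes were higher, with log2 folds from 1.01 to 1.62, and 17 of them were on chromosome 13. Chromosome X held 160 sites, all of them higher, whereas each autosome held 7 or more lower sites, 2.22% to 5.49% of its sites. Over the whole list 7297 of 7613 sites were higher, and neither the tRNA sites nor those of chromosome X were tested against that share.

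By p-value, the strongest change stood just after the end of Col1a1, which encodes the alpha 1 chain of type I collagen, the main collagen of tendon. It was carried by 4 sites within chr11:94953570-94955341, a span of 1772 bp that begins 528 bp after the end of the gene (GRCm38.p6). Their levels with neither drug were 4.23, 4.08, 4.90 and 4.18, in order along the chromosome. With doxycycline the same sites were at 7.65, 7.75, 8.12 and 7.36. The log2 folds were 3.41, 3.66, 3.22 and 3.18, and by p-value the sites ranked 4, 2, 1 and 5 of all, with FDR values from 1.75e-47 to 5.51e-36. The annotation assigns them to Hils1, a histone-like gene of spermatids whose start is the nearest one, 12340 to 13894 bp away. Another listed site, 4744 bp after the end of Col1a1, was much higher at the outset, at 8.45, and reached 9.45 with doxycycline, a log2 fold of 1.0. None of these 5 sites is in the deposited list for blebbistatin added to doxycycline.

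**Figure D3:**
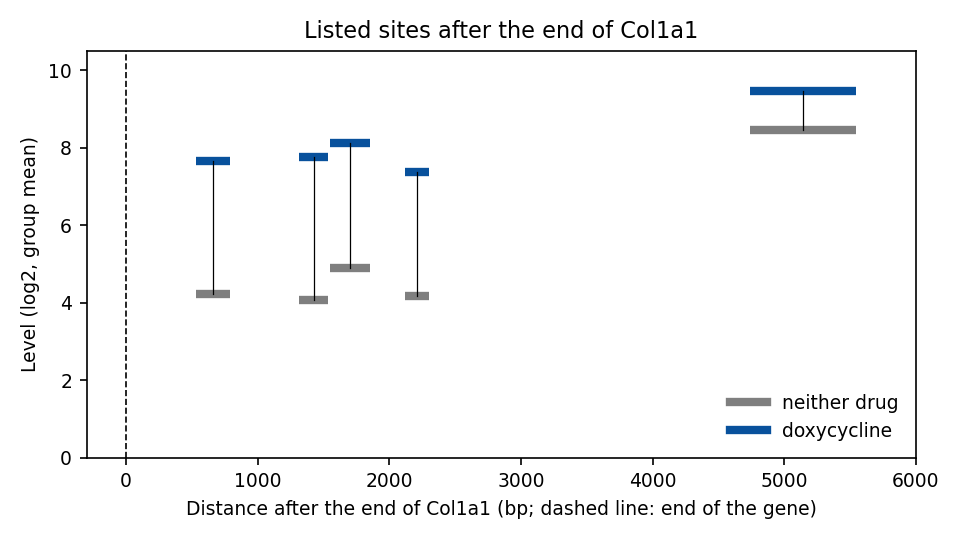
Horizontal bars mark the 5 listed sites by distance in bp after the end of Col1a1, at their deposited log2 mean level with neither drug (grey) and with doxycycline (blue). The first 4 sites rise from between 4.08 and 4.90 to between 7.36 and 8.12, and the last from 8.45 to 9.45.

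By fold, the 2 largest changes lay in a cluster on chromosome X. It consisted of 5 sites in 2 places, chrX:156234797-156235644 and chrX:156454903-156455924, with log2 folds from 3.27 to 3.91. The site of the largest fold in the whole list, chrX:156455838-156455924, was at 1.04 with neither drug and at 4.95 with doxycycline (FDR 1.14e-09). The second, chrX:156235490-156235644, was at 2.13 and 5.85 (3.73, FDR 1.15e-05) and ranked only 3330 by p-value. Both started at low levels. The nearest annotated start belongs to the pseudogene 4930503H13Rik, at 83602 to 304396 bp. Of the 12 sites with a log2 fold of at least 3, 9 were in these clusters on chromosomes 11 and X. The remaining 3 were near Cavin2, a coat protein of caveolae, with 1.99 and 5.51 (log2 fold 3.51), between genes nearest Rgs18, a regulator of G-protein signalling, with 3.16 and 6.41 (3.25), and in an intron of Pappa, a protease that cleaves IGF-binding proteins, with 2.38 and 5.62 (3.24). The list gives no value per library, so whether 1 library carries these folds was not tested.

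The 10 lowest sites were 9 sites between genes and 1 intronic site. The lowest, in an intron of Gm1604b at chr17:8098971-8099277, fell from 3.76 to 1.38 (log2 fold -2.38, FDR 0.00908). A site upstream of Gas7, an actin-associated gene, at chr11:67509581-67509934 was at 6.28 with neither drug and 4.28 with doxycycline (FDR 2.68e-08). The sites nearest Eepd1, Arid1a, Gipc2, Slc16a1 and Phactr1 had log2 folds between -2.05 and -1.80. Arid1a encodes a subunit of the BAF chromatin remodeller, Slc16a1 a lactate transporter, and Phactr1 an actin-binding regulator of protein phosphatase 1. These sites started at middling levels, between 4.93 and 5.53.

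The 5 sites of highest level were next to gene starts, and their folds were at the threshold. The Rock2 promoter site, 1388 bp wide, was at 9.54 and 10.56 (log2 fold 1.02). Rock2 encodes a kinase that activates myosin II and is the target of Y27632. It was followed by Fasn, the fatty acid synthase (9.40 and 10.47), Eif5, a translation initiation factor (9.39 and 10.44), Atp2b1, a calcium pump of the plasma membrane (9.32 and 10.36), and Brpf1, a scaffold of histone acetyltransferases (9.31 and 10.32). The 250 bases before the Rock2 start (chr12:16894728-16894977, plus strand, RefSeq GRCm38.p6) are shown as an example of such a promoter, with the SP/KLF letters GGGCGGG in capitals on either strand.
Rock2: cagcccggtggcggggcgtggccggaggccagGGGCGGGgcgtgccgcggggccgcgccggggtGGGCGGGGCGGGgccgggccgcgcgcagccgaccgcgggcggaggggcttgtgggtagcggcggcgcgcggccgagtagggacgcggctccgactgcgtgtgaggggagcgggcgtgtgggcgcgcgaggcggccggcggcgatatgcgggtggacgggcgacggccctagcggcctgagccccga
They hold 3 matches, and 2 of these overlap by 2 bases.

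Sites were spread over many genes. The nearest start belonged to 5134 different genes, of which 3600 had 1 site, 981 had 2, 337 had 3 and 216 had 4 or more. Dlc1, a GTPase-activating protein that turns off RhoA, had most, with 14 sites, all higher. Its strongest, at chr8:36704343-36704700 in an intron, was at 5.33 with neither drug and 8.07 with doxycycline (log2 fold 2.75), and the other 13 had folds from 1.0 to 1.82. Ddi1, whose RNA was listed at 0 in every library, followed with 10 higher sites. Marcks, an actin-crosslinking membrane protein, Slco3a1, an organic anion transporter, and Tns3, which links integrins to actin, had 8 higher sites each. Eya1, a transcriptional co-activator of early tendon and muscle, had 7 higher and 1 lower. Genes with a site were longer (median 38913 bp for protein-coding genes) than those without (14276 bp), and the nearest start need not belong to the gene that a site serves.

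Known YAP/TAZ target genes often had sites. Of 23 targets, 16 (69.6%) had at least 1 site, beside 4285 of 21896 protein-coding genes (19.6%). Among genes with RNA in these cells the background was 24.9%. The targets held 41 sites, 40 higher and 1 lower, with a median log2 fold of 1.16, beside 1.15 over all 7613 sites. The shares of this and the following lists rest on genes of unequal length, with medians from 8160 bp (AP-1) to 76581 bp (integrins), 32425 bp for these targets and 14276 bp for protein-coding genes without a site. Amotl2, an angiomotin that binds YAP and is itself a target, had the largest folds: the site at chr9:102715559-102715751, 2149 bp before the start, was at 5.71 and 7.77 (log2 fold 2.06), and its neighbour 2579 bp before the start was at 5.97 and 8.0 (2.04). These sites ranked 8 and 16 of all sites by p-value. Ccn1, a secreted matricellular protein, had a promoter site at 8.18 and 9.56 (1.37) and sites 16896 bp after and 52935 bp before its start (1.23 and 1.26). Ccn2, the connective tissue growth factor, had 4 sites, all before its start, with folds from 1.01 to 1.37. The Ankrd1 promoter, of a muscle ankyrin-repeat protein, was at 7.06 and 8.21 (1.16), and the Ptpn14 promoter, of a phosphatase that restrains YAP, at 9.13 and 10.26 (1.13). The 1 lower site was 235579 bp before Asap1, at 5.19 and 4.16 (-1.02), and Asap1 also had 5 higher sites.

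Of 26 Hippo pathway and TEAD genes tested in RNA, 14 had a site (53.8%, beside 24.9% of all RNA-tested genes). With the genes not tested in RNA, this gene list had 26 sites at 15 of 28 genes (53.6%). Of these sites 23 were higher and 3 lower, with the 3 sites of Amotl2 counted here too. An X-chromosomal site 95111 bp before Amot, another angiomotin, was at 2.83 and 4.90 (log2 fold 2.07). Intronic sites of Wwc1, a scaffold of the Hippo kinases, and Stk4, the kinase MST1, had folds of 1.81 and 1.72. Tead1 had 2 higher intronic sites (1.16 and 1.04), and Tead4 1 near its start (1.13). A further intronic site nearest Wwc1 was lower, at 5.36 and 4.15 (-1.2). The genes of the co-activators themselves had sites of opposite directions. Wwtr1 had a promoter site at 9.06 and 10.07 (1.01) and an intronic one at 5.51 and 6.53 (1.02), both higher. Yap1 had 2 intronic sites 60328 and 60739 bp from its start, both lower, at 5.03 and 3.35 (-1.67) and at 4.75 and 3.12 (-1.62).

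Of 9 AP-1 genes tested in RNA, 4 had a site (44.4%, beside 24.9% of all RNA-tested genes). With the genes not tested in RNA, AP-1 genes had 8 sites at 4 of 12 genes (33.3%), all higher. The promoters of Fosb (5.73 and 7.02, log2 fold 1.30), Junb (8.11 and 9.24, 1.13), Atf3 (8.0 and 9.1, 1.09) and Fos (7.43 and 8.43, 1.0) were among them. Their median fold was 1.11, beside 1.15 over all 7613 sites, of which 7297 were higher.

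Matrix genes had mostly higher sites, in a list where 7297 of 7613 sites were higher. Of 40 genes for structural matrix proteins and crosslinkers, 23 (57.5%, beside 24.9% of all RNA-tested genes) had sites, 48 higher and 2 lower. Col5a2, a chain of type V collagen that starts fibrils, had 7 higher sites, led by an intronic one at 3.47 and 5.52 (log2 fold 2.06). Eln, the elastin gene, had an intronic site at 4.98 and 6.91 (1.93). Promoter sites of Thbs1, an activator of latent TGF-beta (7.98 and 9.26, 1.28), and Col12a1, a fibril-associated collagen (7.65 and 8.79, 1.14), were higher. The lower sites lay near Postn, the matricellular periostin (5.82 and 4.34, -1.48), and Thbs2, a thrombospondin (5.52 and 4.20, -1.32). Among 35 genes of matrix breakdown and its inhibitors, 13 (37.1%) had sites, 21 higher and 3 lower. All 13 were among the 33 genes tested in RNA (39.4%, beside the same 24.9%). Ctsl, a lysosomal protease, had a site at 3.62 and 5.80 (2.18), and Timp3, an inhibitor of metalloproteases, had 4 higher sites with folds from 1.05 to 1.60. The lower ones were intronic sites of Mmp2 and Mmp3, metalloproteases (-1.16 each), and of Adamts2, the procollagen N-protease (-1.35), which also had 2 higher sites.

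Contractile and adhesion genes had mostly higher sites of modest fold. Actin genes and SRF targets had 17 higher sites and 1 lower at 11 of 28 genes (39.3%). All 11 were among the 27 genes tested in RNA (40.7%, beside 24.9% of all RNA-tested genes). Their highest fold was 1.43, in an intron of Myh10, a myosin II heavy chain (5.51 and 6.94). The lower one was in an intron of Mylk, the myosin light chain kinase (4.48 and 3.03, -1.45). Integrins and focal adhesion genes had 30 higher and 1 lower at 15 of 30 genes, beside 24.9% of all RNA-tested genes with a site, in a list of long genes (median 76581 bp). A site between genes nearest Itgb1, the integrin beta 1 chain, was at 3.29 and 5.46 (2.17), and the lower one lay before Ptk2, the focal adhesion kinase (5.09 and 3.90, -1.19).

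Signalling, identity and cell cycle genes completed the lists. TGF-beta and BMP genes had 28 sites at 14 of 34 genes (41.2%, beside 24.9% of all RNA-tested genes), all higher. Their median fold was the highest of the 10 lists (1.23). A site 35095 bp before Fst, the activin antagonist follistatin, was at 4.01 and 5.86 (1.84), and the Skil promoter, of a SMAD repressor, was at 8.44 and 9.92 (1.48). Of 26 tendon and fibroblast identity genes, 11 had sites (42.3%, beside the same 24.9%), 26 higher and 1 lower. The promoter of Klf4, a zinc-finger factor, was at 7.99 and 9.40 (1.41), and Mkx, a tendon homeobox factor, had 2 higher sites (1.39 and 1.17). The lower one was near Eya1 (5.48 and 3.93, -1.55). Of 28 cell cycle genes, 8 had sites (28.6%, beside 24.9% of all RNA-tested genes), 14 in all and all higher, and the genes of this list are short (median 12420 bp). Cdkn2b, a CDK4/6 inhibitor, had 4 of them, led by 5.43 and 7.29 (1.86).

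Promoter sequences were compared by motif. Higher sites overlapped 1501 RefSeq promoter windows (250 bases before to 50 after the start) of 1342 genes. The TEAD letters ACATTCC stood in 3.0% of them, beside 3.85% of all 32851 windows and 2.89% of the windows of genes with RNA in these cells. The AP-1 letters TGANTCA stood in 4.53%, beside 7.81% and 5.42%. Motifs of general promoter factors were commoner: ETS (CCGGAAG) stood in 26.0%, beside 8.86% and 15.8%, and SP/KLF (GGGCGGG) in 53.6%, beside 25.6% and 44.1%. The CRE letters TGACGTCA stood in 4.33%, beside 1.79% and 2.84%, and NFY (CCAAT) was less common, at 28.2% beside 37.4% and 37.4%. Both strands were searched, and the windows under higher sites were richer in G and C (median 63.3%, beside 52.7% and 60.3%). A match was counted anywhere in the window, also outside the listed site. The sequences of sites outside promoters were not analysed here.

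The level after blebbistatin was added to doxycycline is known for 1768 of the sites (23.2%), those that the deposited list for that comparison holds at identical coordinates. At these sites the median levels were 4.71 with neither drug, 6.05 with doxycycline and 4.83 with both. The middle 50% ran from 4.23 to 5.32, from 5.59 to 6.60 and from 4.34 to 5.42. All 3 levels are set side by side only, because the lists share the doxycycline libraries and a site had to pass in both. The Dlc1 site of largest fold stood at 5.33, 8.07 and 6.59 in this order, and the Rgs18 site at 3.16, 6.41 and 5.06. Only 33 of the 1768 were promoter sites. The 4 strong sites after Col1a1 were not among them.

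A separate set of libraries allowed an independent comparison: 3 ATAC libraries with DMSO and 3 with blebbistatin at 10 µM, none with doxycycline. Of the 7613 sites, 281 (3.69%) overlapped 287 of the 970 sites of the ATAC blebbistatin list (29.6%) by at least 1 bp. Of the 289 overlapping pairs, 287 joined a site raised by doxycycline to one lowered by blebbistatin, and 2 the reverse. No pair had the same direction. The ATAC list is itself nearly all of 1 direction (17 of 970 higher), so the count of opposite pairs is fixed in large part by the make-up of the lists. Overlap was found for 265 of 5553 higher sites in introns or between genes (4.77%) and for 3 of 1421 higher promoter sites (0.211%). With Y27632 at 30 µM, 64 sites (0.841%) overlapped 63 of 207 sites of that list (30.4%), 62 pairs lower with Y27632 and 2 higher. The 62 were higher with doxycycline and the 2 were lower, and 31 of the 207 Y27632 sites were higher with Y27632. The share of ATAC blebbistatin sites with the authors' TEAD motif was 61.7% among those that overlapped and 62.4% among the other 683.

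Of the 263 sites of listed genes, 18 (6.84%) overlapped an ATAC blebbistatin site, at 16 genes. Over all 7613 sites the share was 3.69%, and the difference was not tested. The Ankrd1 promoter was at 7.05 with DMSO and 5.61 with blebbistatin (log2 fold -1.44, FDR 0.0228). The site 52935 bp before Ccn1 was at 6.75 and 5.14 (-1.61, FDR 0.0133). The Col5a2 site at chr1:45580376-45580841, higher with doxycycline by 1.59, overlapped one at 7.14 with DMSO and 4.58 with blebbistatin (-2.56, FDR 0.000155). The others included sites of Wwc1, Timp3, Timp2, Eya1, Tns3, Tead1 and Acta2, the smooth muscle actin, all lower with blebbistatin by 1.42 or more. The pairs of reverse direction lay near Sucnr1, a succinate receptor, and in Prickle2, a planar polarity gene, and were lower with doxycycline (-1.0 and -1.28) and higher with blebbistatin (1.56 and 1.40).

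RNA was measured in 3 libraries with DMSO and 3 with blebbistatin, also without doxycycline, so it asks how genes near these sites respond when myosin is blocked. Libraries held 23375386 to 31326871 reads in genes. In the DMSO libraries all 10 tendon fibroblast markers were expressed, with a summed normalised count of 813249 to 869302. The collagens Col1a1, Col1a2 and Col3a1 led this sum. The tendon markers Scx, Tnmd and Mkx stood at 56.3 to 72.8, 843 to 993 and 917 to 968. Macrophage and leukocyte markers summed to 5588 to 6185, led by Lyz2, with Cd3e at 0. Smooth muscle and pericyte markers summed to 2001 to 2223, and epithelial ones to 8.04 to 11.9. The part of such cells in the results was not tested, and fewer cells of a type and less RNA per cell cannot be told apart in bulk RNA.

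Among genes near higher sites, more had lower than higher RNA with blebbistatin. Of 14882 genes tested with limma on log2(normalised count + 1), 7894 (53.0%) had an adjusted p under 0.05, 4009 lower (26.9%) and 3885 higher (26.1%). Of 3497 tested genes with a higher and no lower site, 1312 were lower (37.5%) and 810 higher (23.2%), with a median log2 change of -0.06 beside 0.00 for all genes. Of genes with 3 or more sites and none lower, 190 of 363 were lower (52.3%) and 59 higher (16.3%), and 48 fell by 1 or more on the log2 scale (13.2%, beside 2.94% of all genes). Of genes with a higher promoter site and no lower site, 454 of 1256 were lower (36.1%) and 234 higher (18.6%), and 44 fell by 1 or more (3.5%). With a higher site that overlapped an ATAC blebbistatin site and no lower site, 88 of 156 were lower (56.4%) and 29 higher (18.6%). Among genes with lower sites and none higher, more were higher, 52 of 108 (48.1%) beside 17 lower (15.7%). These counts are descriptions, since genes with sites are longer than others and no test across genes was made.

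**Figure D4:**
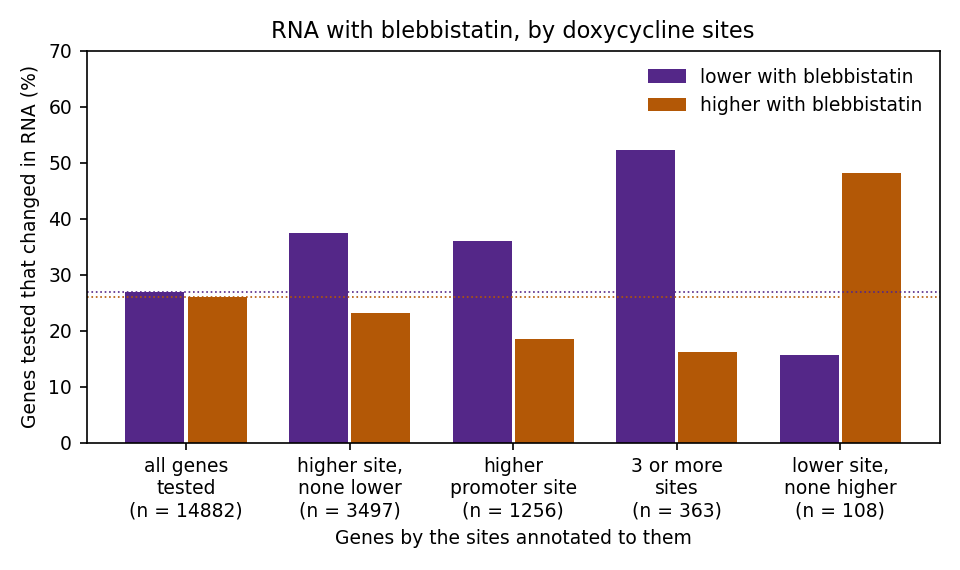
Bars give the percentage of tested genes whose RNA was lower (purple) or higher (orange) with blebbistatin at a limma adjusted p under 0.05, grouped by the doxycycline sites annotated to them, and dotted lines repeat the shares of all genes. Lower RNA reaches 52.3% among genes with 3 or more sites and none lower, and higher RNA 48.1% among genes with lower sites only.

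All but 1 of the 16 YAP/TAZ targets with a site had lower RNA with blebbistatin. Ccn1 was at normalised counts of 9898, 10690 and 10942 with DMSO and 2346, 2666 and 2818 with blebbistatin. The groups did not overlap, as in 60.2% of all genes tested, and the log2 change was -2.01 ± 0.0593 (SE, limma adjusted p = 7.3e-11). Amotl2 was at 21420, 21635 and 21423 with DMSO and at 4321, 4822 and 4652 with blebbistatin. This is the largest fall of the 16, -2.23 ± 0.0384 (limma adjusted p = 1.59e-12). Amotl2 was also the target with the largest site folds, but whether site folds and RNA changes go together was not tested. Ankrd1 was at 214, 216 and 240 and then 65.4, 90.4 and 108, a log2 change of -1.36 ± 0.159 (limma adjusted p = 1.42e-05). Ccn2 changed by -1.60, Nuak2, a kinase related to AMPK, by -1.98, Ajuba, a LIM protein that binds LATS, by -1.46, and Ptpn14 by -0.55. Fjx1 fell by 0.38 (limma adjusted p = 0.0306), and it lost its call when DMSO library 1 (-0.33, adjusted p = 0.101), DMSO library 2 (-0.35, 0.0844) or blebbistatin library 3 (-0.23, 0.126) was left out. Asap1, the gene with sites in both directions, was at 5722, 5371 and 5308 and then 5662, 5392 and 5560 (0.02 ± 0.0365, limma adjusted p = 0.691). Of the 7 targets without a site, 2 were lower and 4 higher.

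**Figure D5:**
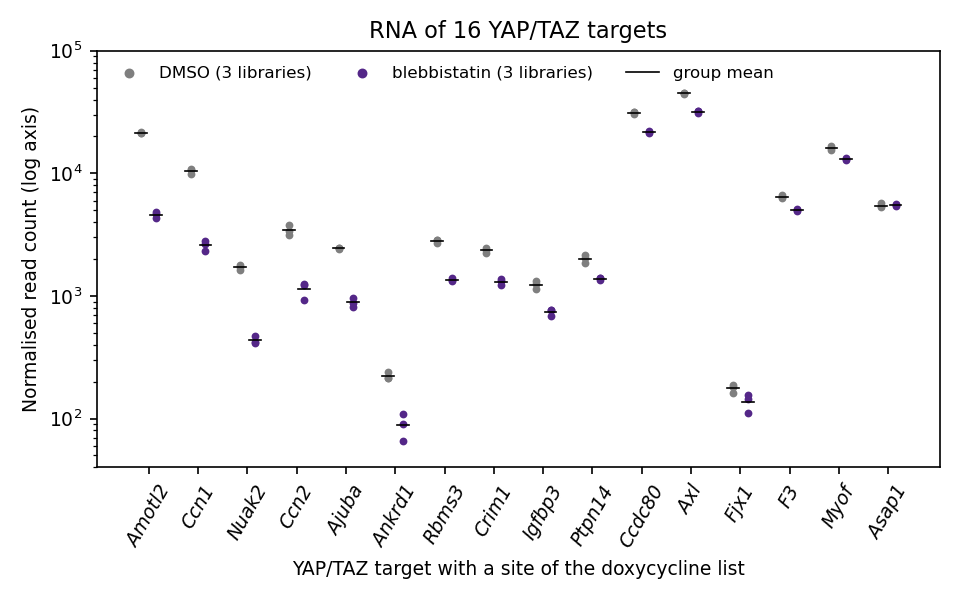
Each dot is the normalised read count of 1 library on a log axis, for DMSO (grey) and blebbistatin (purple), with the group mean as a bar, for the 16 YAP/TAZ targets with a doxycycline site, ordered by log2 change. Groups lie apart for the 15 genes from Amotl2 to Myof and overlap for Asap1, beside 30.2% of all genes tested with every blebbistatin library below every DMSO library.

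The genes of the co-activators rose slightly with blebbistatin. Wwtr1 was at 4728, 4820 and 4728 with DMSO and 6157, 5935 and 5853 with blebbistatin (0.33 ± 0.0317, limma adjusted p = 2.52e-06). Yap1, with its 2 lower sites, was at 4358, 4642 and 4388 and then 4829, 4957 and 4877 (0.13 ± 0.0341, limma adjusted p = 0.00615). In both genes the groups did not overlap, as in 60.2% of all genes tested.

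Other genes named for their sites gave mixed values. Rock2, with the site of highest level, was at 21862, 22721 and 21906 with DMSO and 6252, 6267 and 6648 with blebbistatin (-1.79 ± 0.0334, limma adjusted p = 2.61e-12). Fasn fell by 1.22, Cavin2 by 1.07, Pappa by 0.75 and Dlc1 by 0.72 on the log2 scale, with limma adjusted p-values from 6.34e-10 to 7.35e-06. Marcks, Slco3a1 and Tns3 changed by -0.55, -0.7 and -0.76, all past the test. Eif5 (0.02), Eya1 (0.01), Slc16a1 (-0.04) and Arid1a (-0.10) did not pass the test, while Arid1a did, at -0.18, without DMSO library 3. Atp2b1 rose by 0.21 and Brpf1 fell by 0.26. Of the genes at the lowest sites, Eepd1 rose from 103, 97.1 and 79.3 to 330, 329 and 321 (1.81 ± 0.11, limma adjusted p = 3.84e-08), and Gas7, Gipc2 and Phactr1 rose by 0.91, 1.71 and 0.93. Each of these genes also had higher sites, 1 of 2 sites for Eepd1 and Phactr1 and 2 of 3 for Gas7 and Gipc2. Gipc2 is a low gene, at 4.41 to 8.04 with DMSO. Col1a1 itself fell from 294339, 290408 and 269097 to 233537, 256773 and 226451 (-0.25 ± 0.0509, limma adjusted p = 0.00115), and Hils1, to which its end sites are annotated, had a mean under 10 and was not tested.

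Across the lists, genes with sites that fell outnumbered those that rose for matrix structure (15 lower, 5 higher of 23), actin and SRF targets (9 and 1 of 11), integrins (9 and 4 of 15), TGF-beta and BMP genes (10 and 2 of 14) and the cell cycle (6 and 0 of 8). Matrix degradation (5 and 7 of 13), AP-1 (0 and 3 of 4) and tendon identity (2 and 5 of 11) had more that rose, and the Hippo list was even (6 and 5 of 14). Over all genes tested the shares were 26.9% lower and 26.1% higher. Genes without sites also had more that fell for actin and SRF targets (12 lower, 1 higher of 16), integrins (7 and 3 of 15), the cell cycle (9 and 5 of 20) and Hippo genes (7 and 3 of 12). Without sites, more rose for matrix structure (4 lower, 7 higher of 17) and TGF-beta and BMP genes (6 and 10 of 20). The same held for matrix degradation (5 and 10 of 20) and tendon identity (5 and 6 of 15), while AP-1 genes without sites had 2 lower and 1 higher of 5. Bmp4, a BMP ligand with 4 higher sites, fell from 649, 608 and 650 to 142, 155 and 153 (-2.07 ± 0.0738, limma adjusted p = 3.39e-10). Fst fell by 1.56, Amot by 1.15, Ccnd1, cyclin D1, by 0.81 and Col5a2 by 0.48. Ctsl rose by 0.25 and Fos by 0.44. Postn (-0.05), Fosb (0.12), Myh10 (0.10) and Cdkn2b (-0.02) did not pass the test with all libraries, and Myh10 passed, at 0.13, without DMSO library 1. Mylk and Adamts2, each with 1 lower site and also with higher ones (1 and 2), rose by 0.26 and 0.12. Their limma calls were lost without blebbistatin library 3 (0.19, adjusted p = 0.0544) and blebbistatin library 2 (0.09, adjusted p = 0.0518).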

How the data were processed

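For each region the authors deposited the log2 level of each group (3 libraries, not listed singly), the log2 fold, a p-value and the FDR, per the file headers. The submitters' processing notes name mm10, Bowtie2, MACS2, DiffBind and HOMER, without a role for each. How libraries were scaled is not given in the sources used here. The reference column of the doxycycline list is headed as the group with blebbistatin. At 13 sites found in another list its values differed from the group with neither drug by a mean of -0.1277 (SD 0.0044) and from the group in its header by 1.1185 (SD 0.1842), so it was read as the group with neither drug, which the labels also tie to this list. Distances to the nearest start (bp) and annotations are the authors' too, per the file headers. Positions are given as deposited, with mm10 the only build named. RNA values are a signal, read counts divided by a factor per library, deposited by the authors. Whole reads were recovered for 100% of values (tolerance 0.02 reads). RNA was tested with limma 3.58.1 (R 4.3.3, trend, pseudocount 1, mean of at least 10, Benjamini-Hochberg). The script was tested on simulated data, and edgeR 4.0.16 and DESeq2 1.42.0 were alternatives. Of 5134 gene names of the list, 5096 were found in the RNA table and 3706 were tested. Sites sharing 1 bp or more were counted as overlapping. Sites named are the 10 highest and 10 lowest folds at an FDR under 0.01, the 5 highest levels, sites of listed genes and genes with most sites. The clusters, the reverse ATAC pairs and the Phyhd1 site were named after their values were seen. The members and lists were chosen with earlier results of these data known.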

Additional observations from a re-analysis of the deposited data

How the results depend on the processing

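With a log2 fold of at least 1.5 in size, 949 higher and 37 lower sites were left, of which 3.69% of the higher ones lay in promoters. An FDR under 0.001 left 129 lower sites. Counting promoters as within 1000 bp of a start gave 23.2% of the higher sites. At an FDR under 0.01 in both lists, 106 sites overlapped the ATAC blebbistatin list and 27 the Y27632 list. The TEAD core GGAATG in place of the longer motif stood in 11.7% of the promoter windows under higher sites, beside 14.7% of all windows and 12.5% of those of RNA-tested genes. With only sites within 10000 bp of a start, 746 genes near higher sites had lower RNA (37.5%) and 405 higher (20.4%), and near lower sites 2 were lower (8.33%) and 16 higher (66.7%). The fewer sites and genes kept account for the smaller counts by construction. The replicate numbers did not pair the RNA libraries (correlations of deviations -0.061, 0.022 and 0.013), and the replicate block gave 1280 lower and 783 higher genes near higher sites, and 18 and 52 near lower ones. Leaving out each library gave 1178 to 1261 lower and 728 to 768 higher genes near higher sites, and 14 to 17 and 46 to 51 near lower ones. By edgeR and DESeq2 on recovered reads, 7924 and 6838 genes in all were called. Of 701 alternative values for named genes, 693 kept their call, 6 lost it and 2 gained it, and 0 called genes changed direction. For Fjx1, DESeq2 gave an adjusted p of 0.0503. Motifs in the central 100 or 300 bp of sites were not run. Site values have no depth or spread per library here, which limits every statement on them to group means.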
